A study of Mus musculus with 128 samples.

Results

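Many copies of a few gene families lie side by side on mouse chromosome 14, and 91 of the 41300 genes in the deposited table had their lowest start in the interval described here, which begins at position 41000000 (mm10). The last member starts at 44440402 and the next gene, left outside, at 44500122. The members were chosen by position alone, so that genes with no signal were kept, but the interval itself was picked with measured levels of these libraries in view. Which comparison drew attention to it is not recorded, so the tests on its members are given as a description and not as independent support. The annotation (GENCODE M21) called 73 of the members protein coding, 11 long intergenic RNAs, 4 miRNA genes, 2 antisense genes and 1 snRNA. The first members by position were Dydc2 and Gm47547 and the last were Gm8232 and Gm49779. The genes just outside were Tspan14 and Fam213a on one side, and RP23-48M16.1 and Gm17093 on the other.

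The study sequenced polyA RNA of single MII oocytes (eggs arrested in the second meiotic division) and of single embryos from C57BL/6 mice. The embryos had 2, 4 or 8 cells, and each of 8 groups of stage and genotype had 16 libraries. Per the labels, embryos of each stage also had their own age in days after fertilisation, the same in both genotypes. Comparisons between embryo stages are therefore also comparisons of age, and the data cannot separate them. Kdm4a, the gene that was knocked out, encodes a demethylase of histone H3 that the egg supplies to the early embryo. Oocytes with Kdm4a (m+/p- in the labels) or without it (m-/p-) were fertilised with Kdm4a-knockout sperm, so the embryos called wildtype carried only a maternal copy and both genotypes lacked a paternal one. Each library is 1 oocyte or 1 whole embryo without its zona, the labels do not say which ones shared a mother, and the p-values therefore measure the spread between these libraries.

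Tandem gene families of this kind arise by repeated duplication, and their copies can stay so alike that a short read fits several of them. Some genes of the interval have known products. Mat1a encodes the S-adenosylmethionine synthase typical of liver, Sftpa1, Sftpd and Mbl1 encode collectins, which are secreted proteins that bind sugars on microbes, and Dydc1 and Dydc2 encode proteins with a DPY30 motif. Ear1, Ear2 and Ear10 belong to the eosinophil-associated ribonucleases, and Ang5 and Ang6 to the angiogenin ribonucleases. The roles of the copied genes with provisional names are not stated here. The 2-cell stage of the mouse is the time when the embryo's own genome is first transcribed strongly, while RNA stored in the egg is being lost.

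The members were grouped by sequence, joining genes whose M21 transcripts were at least 85% identical over at least 70% of the shorter one. The families were defined after the values had been seen, and no test was made over them. The largest, here called the Gm7970 family, had 34 members with a median transcript of 1403 bases. Of these, 29 lay on the minus strand, and identity between pairs ran from 92.6% to 99.8% (median 96.4%). A further 15 members formed the Gm5798 family, with a median transcript of 1751 bases and pairwise identity from 88.8% to 100% (median 92.8%), and 13 of them lay on the plus strand. The Gm3486 family had 9 members, all on the minus strand, with identity of at least 97.8%. Smaller families were 4 miRNA genes of 121 bases, the group of Gm47547, Gm49083 and Gm8113, the 3 Ear genes, and the pairs Gm49135 with Gm21154, Gm5799 with 4930503E14Rik and Ang5 with Ang6. The other 17 members were in no family. Between the Gm7970 and Gm5798 families identity was lower, at a median of 64.9% over 469 pairs (63.2% to 67.3%).

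The following coding stretches show how close the copies are. Each covers the first 150 bases from the start codon of Gm5798 and the bases that align with them in the other genes (GENCODE M21 transcripts, GRCm38, 2 exons each), and capitals mark the bases that differ from Gm5798. The stretches lie on chromosome 14, on the plus strand for Gm5798 (chr14:41348635-41349503), Gm8011 (chr14:42463907-42464775), 1700049E17Rik1 (chr14:41924975-41925852), Gm8104 (chr14:43100627-43101504) and Gm6526 (chr14:43747892-43748768), and on the minus strand for Gm7970 (chr14:41554410-41555555) and Gm17026 (chr14:42258914-42260020).
Gm5798: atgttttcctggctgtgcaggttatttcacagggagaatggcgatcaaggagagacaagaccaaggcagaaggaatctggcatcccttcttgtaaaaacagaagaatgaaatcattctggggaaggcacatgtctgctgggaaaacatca
Gm8011: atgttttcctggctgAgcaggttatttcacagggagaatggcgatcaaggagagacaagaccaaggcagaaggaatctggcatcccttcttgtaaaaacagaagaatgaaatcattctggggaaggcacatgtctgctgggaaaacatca
1700049E17Rik1: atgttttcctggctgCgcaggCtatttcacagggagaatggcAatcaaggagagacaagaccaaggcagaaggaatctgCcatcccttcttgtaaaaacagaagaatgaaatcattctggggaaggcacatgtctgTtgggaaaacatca
Gm8104: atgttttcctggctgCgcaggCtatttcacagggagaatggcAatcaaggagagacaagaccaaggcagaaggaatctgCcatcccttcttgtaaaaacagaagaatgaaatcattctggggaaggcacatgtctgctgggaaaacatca
Gm6526: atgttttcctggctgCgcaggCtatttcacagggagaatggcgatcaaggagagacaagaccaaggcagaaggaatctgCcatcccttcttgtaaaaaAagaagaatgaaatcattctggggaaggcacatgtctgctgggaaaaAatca
Gm7970: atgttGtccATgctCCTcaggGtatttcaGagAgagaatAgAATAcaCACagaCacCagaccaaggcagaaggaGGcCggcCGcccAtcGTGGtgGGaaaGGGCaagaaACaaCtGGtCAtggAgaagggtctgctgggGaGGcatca
Gm17026: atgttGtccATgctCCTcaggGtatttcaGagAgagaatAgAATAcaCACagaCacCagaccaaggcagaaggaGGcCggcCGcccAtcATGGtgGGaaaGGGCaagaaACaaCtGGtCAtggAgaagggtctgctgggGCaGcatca
Gm8011 differed from Gm5798 at 1 base of this stretch, Gm8104 at 4, and 1700049E17Rik1 and Gm6526 at 5 each. Gm7970 and Gm17026 differed from it at 46 bases and lacked 5. Over whole transcripts, Gm5798 and Gm8011 were 99.8% identical, 1700049E17Rik1 and 1700049E17Rik2 were 100% identical, and Gm7995 and Gm10378 were 99.8% identical. 1700024B05Rik was 99.8% identical to Gm10378 and 99.6% to Gm7995. Gm6526 stood further off, at 90.6% identity to Gm5798.

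RefSeq promoters (GRCm38.p6, 250 bases before to 50 after the start) were found for 52 members, with 58 starts. The promoters of Gm5798 (chr14:41348316-41348615) and 1700049E17Rik1 (chr14:41924699-41924998), both on the plus strand, are shown because both genes were lower in knockout oocytes and 2-cell embryos. Capitals mark bases of the latter that differ from the former.
Gm5798: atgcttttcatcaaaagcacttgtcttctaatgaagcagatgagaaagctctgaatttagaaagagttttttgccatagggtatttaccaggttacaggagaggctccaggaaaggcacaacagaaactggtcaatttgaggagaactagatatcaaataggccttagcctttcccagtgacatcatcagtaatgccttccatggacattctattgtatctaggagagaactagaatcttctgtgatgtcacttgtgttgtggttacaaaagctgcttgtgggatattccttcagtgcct
1700049E17Rik1: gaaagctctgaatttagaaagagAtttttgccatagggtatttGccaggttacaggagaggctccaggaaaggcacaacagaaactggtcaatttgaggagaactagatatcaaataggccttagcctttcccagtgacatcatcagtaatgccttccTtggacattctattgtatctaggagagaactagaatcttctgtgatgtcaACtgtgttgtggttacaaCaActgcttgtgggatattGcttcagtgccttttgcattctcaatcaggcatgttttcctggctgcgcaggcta
They aligned over 257 bases with 8 differences. The motif TATAAA, searched on both strands like those that follow, was found in 6.9% of the member promoters and in 13.6% of all 32851 promoters of this length. TAATCC was found in 6.9% and 7.06%, and AAGGTCA in 3.45% and 4.72%. The E-box CACGTG was in none of the member promoters and in 7.15% of all. These are matches of letters and say nothing of binding.

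The deposited counts of these genes were often not whole numbers. In the interval, 78.2% of 4451 values above 0 had a fractional part (tolerance 0.001), and these held 85.9% of its counts. Among all other genes the share was 30.5% of non-zero values, and those held 63.9% of the counts. By group the share in the interval was 87.5% in wildtype and 80.8% in knockout oocytes, 83.2% and 79.2% at 2 cells, 76.2% and 69.7% at 4 cells, and 64.9% in both genotypes at 8 cells. By family it was 91.1% in the Gm5798 family, 79.0% in the Gm7970 family, 85% in the Gm3486 family and 51.8% in the members of no family. Among the members with at least 20 non-zero values, Dydc1 (11.5%), Dydc2 (12.7%) and Mat1a (4.22%) were the 3 under 20%.

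The non-whole share was also set against sequence, as the share of 150-base windows of a transcript found unchanged in another gene. Over the 58 members with at least 20 non-zero values, Spearman's rho between these measures was 0.48, a description over genes that share libraries and, within families, sequence. 1700049E17Rik1 shared 99.8% of its windows, Gm5798 82.8%, Gm8011 78.7%, Gm7970 77.6% and Gm17026 63.4%. Gm8104 shared 7.82% of its windows, and 90% of its values were not whole. Gm6526 shared none, and 72.0% of its values were not whole. Of the 6 members that shared no window, 3 were above 50% non-whole.

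**Figure D1:**
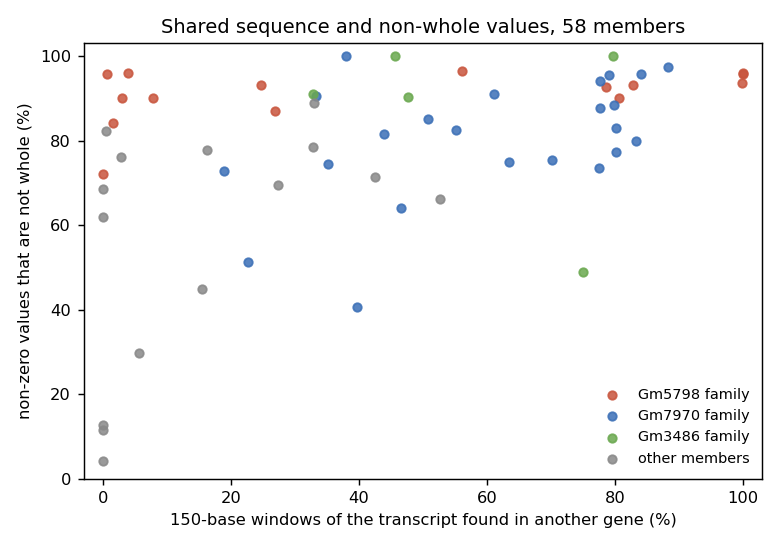
Each point is 1 of 58 members; the x axis is the percentage of its transcript's 150-base windows found in another gene, and the y axis the percentage of its non-zero values that were not whole. The Gm5798 family (red) lies high at both ends of the x axis, and the lowest 3 points, all without shared windows, are Dydc2, Dydc1 and Mat1a.

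The libraries were checked first. One 8-cell knockout library (replicate 4) held 404 counts and was left out, and the other 127 held 527283 to 4656270 counts (median 2128450). Summed oocyte markers (Zp2, Zp3, Gdf9, Mos and Oosp1) averaged 8244 and 8130 CPM (counts scaled to a common library total) in wildtype and knockout oocytes and 19.9 and 116 CPM at 8 cells. Summed 8-cell markers averaged 3.87 and 3.48 CPM in oocytes and 172 and 151 CPM at 8 cells. The 7 markers of the 2-cell stage summed to 187.6 and 284.3 CPM in wildtype and knockout oocytes. At 2 cells they differed between genotypes, at 2308 and 1602 CPM (medians 2225 and 1328), with overlapping ranges. Oocyte markers there averaged 3207 and 2756 CPM. Kdm4a stood between 4.6 and 16.2 CPM in wildtype oocytes (median 10.9) and between 0 and 3.76 CPM in knockout oocytes (median 1.15). At 2 cells it ranged from 5.09 to 22.6 CPM (median 16.5) and from 0 to 6.03 CPM (median 2.26), at 4 cells from 0 to 10.8 CPM and from 0 to 4.72 CPM, and at 8 cells from 0 to 3.4 CPM and from 0 to 6.3 CPM. The ranges did not overlap in oocytes and overlapped at the later stages, so at 8 cells the level of Kdm4a does not check the genotype labels. Of the other cell types, the 3 liver and 2 lung epithelium markers summed to at most 0.512 CPM in any group mean, and the 5 eosinophil and macrophage markers to 2.96 and 2.94 CPM in oocytes and 9.63 and 5.28 CPM at 2 cells. The 6 cumulus and granulosa markers summed to 88.7 and 97.5 CPM in wildtype and knockout oocytes and to 20 and 23.9 CPM at 2 cells, and the 3 neuron markers to 50.8 and 44.6 CPM and to 20.9 and 18.9 CPM. The part of these markers in the results was not tested.

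Some libraries stood apart from their group. In 8-cell knockout replicate 7 the oocyte markers summed to 1147 CPM, against 13 to 126 CPM in the other 14. In 4-cell wildtype replicate 11 the 2-cell markers summed to 1160 CPM, against at most 261 CPM in the others. In knockout oocyte replicate 15 the oocyte markers summed to 1739 CPM, against at least 6689 CPM in the others, and in 4-cell knockout replicate 15 to 735 CPM, against at most 199 CPM. The lowest total, 527283 counts, was that of 2-cell knockout replicate 13.

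Summed over the 91 members, the interval was lower in knockout than in wildtype oocytes and 2-cell embryos. CPM values are shares of a library's counts, so fewer copies of an RNA and more of all other RNA cannot be told apart. In wildtype oocytes the sum ranged from 143 to 215 CPM (median 188) and in knockout oocytes from 86.1 to 167 CPM (median 127). At 2 cells it ranged from 238 to 465 CPM (median 352) in wildtype and from 150 to 270 CPM (median 218) in knockout embryos. Ranges overlapped at both stages, with 12 of 16 knockout oocytes and 10 of 16 knockout 2-cell embryos below the lowest wildtype library, and 16 of 16 below the wildtype median at each. The means were 182.4 ± 22.6 and 126.5 ± 20.8 CPM (SD, n = 16 each) in oocytes and 354.6 ± 61.8 and 215.9 ± 37.8 CPM (SD, n = 16 each) at 2 cells, which are ratios of knockout to wildtype of 0.694 and 0.609.

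At 4 cells the wildtype sum ranged from 61.3 to 227 CPM (median 95.8) and the knockout sum from 40.7 to 145 CPM (median 68). The means were 108.9 ± 41.8 and 73.2 ± 26.3 CPM (SD, n = 16 each), a ratio of 0.672, or 0.729 without wildtype replicate 11 and knockout replicate 15. At 8 cells the ranges were 21.8 to 80.1 CPM (median 43.7) and 21.7 to 302 CPM (median 48.7). The means were 44.9 ± 14.6 (SD, n = 16) and 69 ± 67.3 CPM (SD, n = 15), a ratio of 1.54. Without knockout replicate 7, whose sum was 302 CPM, the knockout mean was 52.3 ± 20.1 CPM and the ratio 1.17. The groups overlapped widely at both stages, with 13 of 16 and 6 of 15 knockout embryos below the wildtype median.

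**Figure D2:**
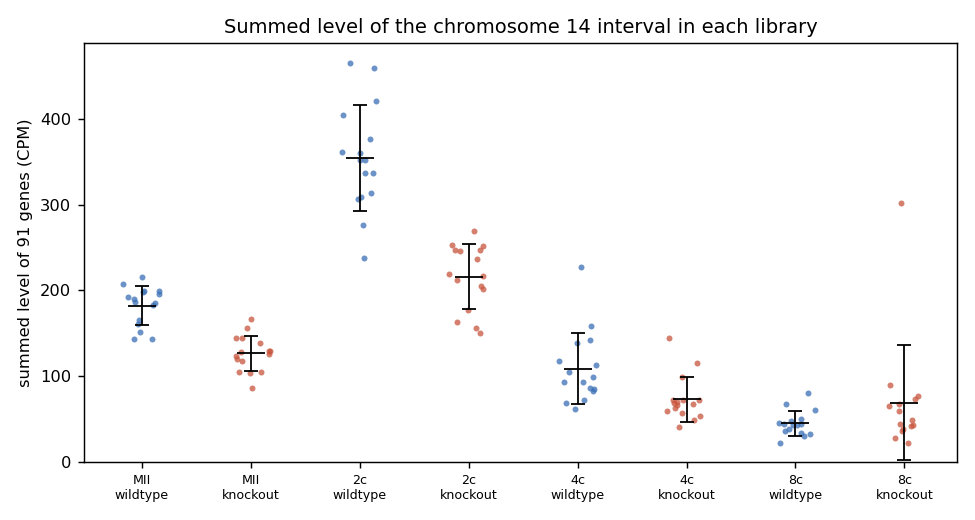
Each point is 1 library, in blue for wildtype and red for knockout, and the y axis is the CPM summed over the 91 members; horizontal lines are group means and bars 1 SD. The sum is highest in wildtype 2-cell embryos (238 to 465 CPM), and 8-cell knockout replicate 7 stands alone at 302 CPM.

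A second block of genes with provisional names on the same chromosome, 116 genes with starts from 2500000 to 8000000, summed to 22.2 and 19.1 CPM in wildtype and knockout oocytes and to 25.3 and 24.7 CPM at 2 cells. At 4 and 8 cells it summed to 13 and 12.8 CPM, and to 11.4 and 13.1 CPM. No test was made between the blocks. Dlg5, a gene of chromosome 14 outside both blocks, had means of 11.6 and 11.9 CPM in oocytes and 4.43 and 4.71 CPM at 2 cells.

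The Gm5798 family held 59.9% of the interval's summed CPM in wildtype oocytes and 62% in wildtype 2-cell embryos, against 48.4% and 46.8% in knockouts. At 4 cells it held 33.8% and 40.7%, and at 8 cells 17.2% and 32.1%. In wildtype oocytes its 15 genes summed to 87.2 to 129 CPM (median 111) and in knockout oocytes to 37.5 to 78.4 CPM (median 61.9). At 2 cells the sums were 155 to 314 CPM (median 213) and 52.1 to 146 CPM (median 99.8). The genotypes did not overlap at either stage, with 16 of 16 knockout libraries below the lowest wildtype one. The means were 109.2 ± 13.8 and 61.3 ± 12.1 CPM in oocytes and 219.7 ± 44.9 and 101 ± 28 CPM at 2 cells (SD, n = 16 each), ratios of 0.561 and 0.46. At 4 cells the sums overlapped, from 16 to 63.5 CPM (median 33.9) and from 3.92 to 88.4 CPM (median 27.6). At 8 cells the wildtype sums reached 15.2 CPM, and the knockout sums 185 CPM in replicate 7 and at most 32.3 CPM in the others. The 8-cell means were 7.73 and 22.2 CPM, or 10.5 CPM for knockout without replicate 7.

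The Gm7970 family, though larger, had lower sums, and the genotypes overlapped. Its sum averaged 21.2 ± 9.51 and 21.2 ± 8.59 CPM in wildtype and knockout oocytes and 31.1 ± 15.9 and 32.4 ± 18.1 CPM at 2 cells (SD, n = 16 each). At 4 cells the means were 20.3 and 5.81 CPM, a ratio of 0.286, or 0.485 without wildtype replicate 11 and knockout replicate 15. Of 16 knockout embryos at 4 cells, 10 lay below the lowest wildtype one and 14 below the wildtype median. Wildtype replicate 11 held 138 CPM there, and without it the wildtype mean was 12.4 CPM, with libraries from 5.28 to 23.4 CPM against 0.605 to 20.7 CPM in knockout embryos. At 8 cells the means were 3.78 and 3.22 CPM.

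Without the Gm5798 family, the rest of the interval summed to 73.2 and 65.2 CPM in oocytes and 134.9 and 114.9 CPM at 2 cells, ratios of 0.892 and 0.852. Of 16 knockout libraries, 13 in oocytes and 15 at 2 cells lay below the wildtype median, and the ranges overlapped. At 4 cells this rest summed to 72.1 and 43.4 CPM, a ratio of 0.602. Without wildtype replicate 11 and knockout replicate 15 the ratio was 0.684. Of 16 knockout 4-cell embryos, 9 lay below the lowest wildtype one and 14 below the wildtype median. The Gm3486 family was near 0 throughout, at 1.96 and 1.49 CPM in oocytes, 0.59 and 1.27 CPM at 2 cells and 0 in all 32 libraries of the 4-cell stage. The 4 miRNA genes, whose mature products polyA libraries do not capture as such, summed to 11.2 ± 5.7 and 4.63 ± 2.02 CPM at 2 cells (SD, n = 16 each) and to at most 1.57 CPM in the other group means.

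**Figure D3:**
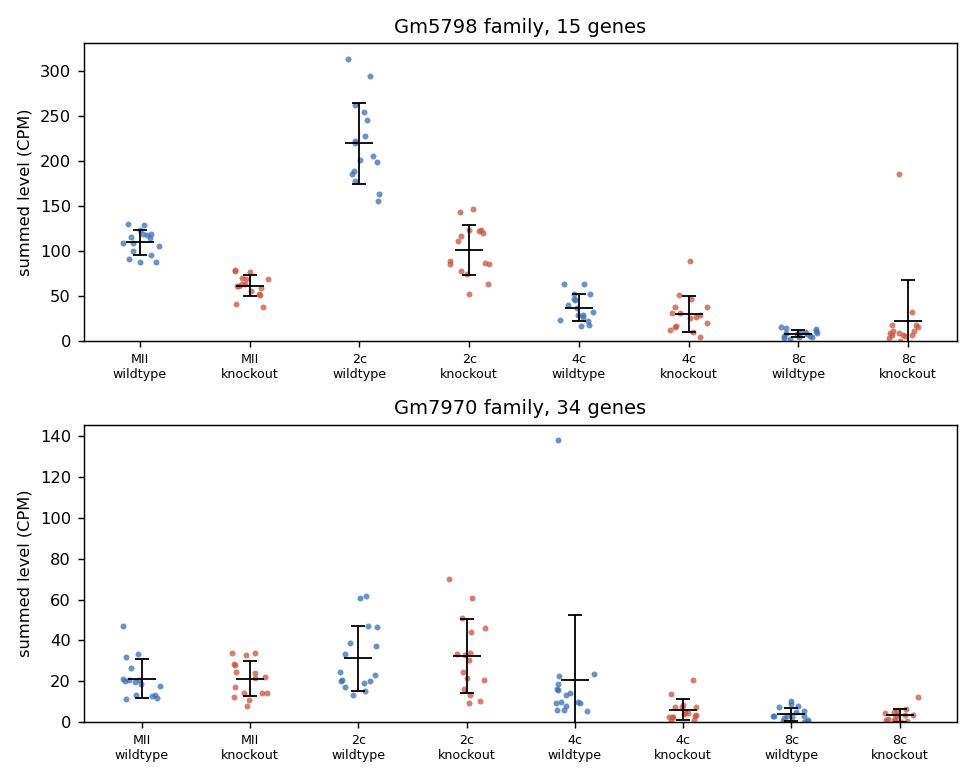
Each point is 1 library (blue wildtype, red knockout), with group means and bars of 1 SD; the y axes are the CPM summed over the 15 genes of the Gm5798 family (top) and the 34 genes of the Gm7970 family (bottom), on different scales. Wildtype and knockout libraries of the Gm5798 family do not overlap in oocytes or at 2 cells, while the Gm7970 family overlaps at both, with 4-cell wildtype replicate 11 at 138 CPM.

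Along the interval, the signal at 2 cells came from few positions. Of the 91 members, 40 reached a mean of 1 CPM in some group, 22 reached 5 CPM, and 4 (Gm6401, Gm3287, Gm49099 and Ear2) were at 0 in all 127 libraries. In the Gm5798 family 12 of 15 members had their highest group mean at 2 cells and 3 at 4 cells, whereas in the Gm7970 family 13 of 34 were highest in oocytes, 13 at 2 cells, 7 at 4 cells and 1 at 8 cells. These are means of CPM over library totals, while the log2 changes given below also use TMM normalization factors. On that scale, 9 of 10 tested Gm5798 family members were not called from wildtype oocyte to 2 cells (family median log2 0.14). The highest single means were 66.4 CPM for Gm8104 and 49.6 CPM for AC154806.1, both in wildtype 2-cell embryos. Per kilobase of deposited length these were 37.7 and 38.3 CPM in the same group, and the highest member was Gm7995, deposited with 429 bases, at 70.2 CPM per kilobase. Its near-copy Gm10378, deposited with the same length, stood at 17.8, 1700024B05Rik at 17.3, Gm8011 at 12.8 and Gm5798 at 9.46, and the miRNA genes Gm25208 and Gm25892 at 38.9 and 33.1. The M21 transcripts of Gm7995 and Gm10378 aligned over 1239 bases, more than the deposited length. Their values per kilobase, and the rank of Gm7995, therefore depend on the annotation.

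**Figure D4:**
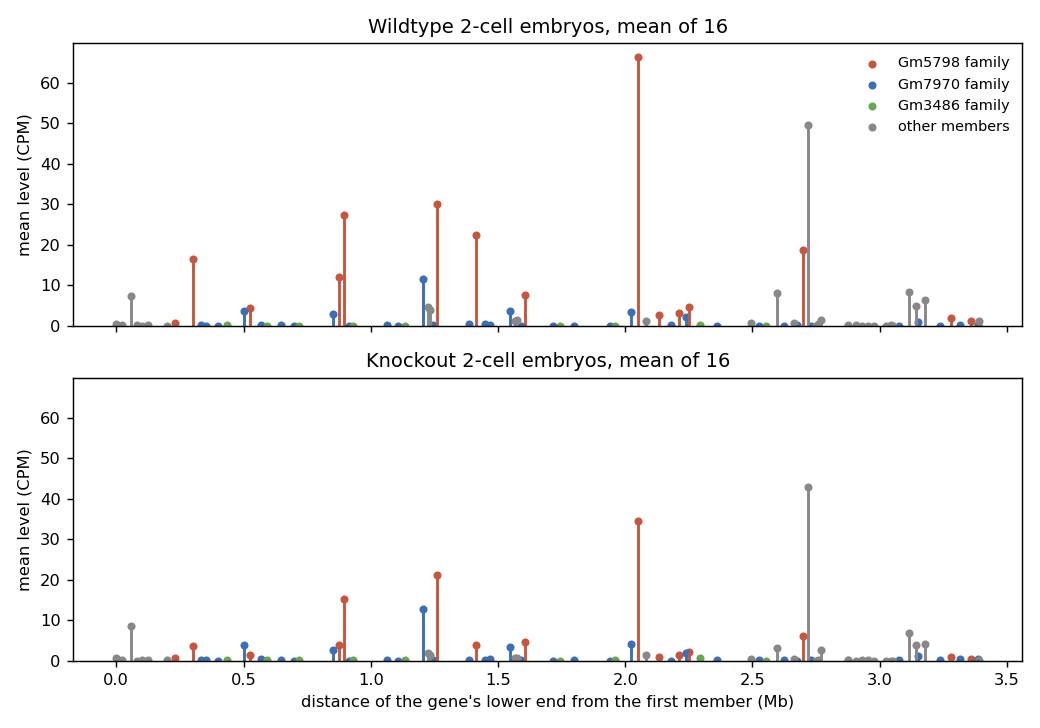
Stems give each member's mean CPM at 2 cells (wildtype top, knockout bottom, 16 libraries each) against the distance of its lower end from the first member in Mb. Red stems of the Gm5798 family, among them Gm8104 at 66.4 and 34.6 CPM, are shorter in knockout embryos, and the tallest grey stem, AC154806.1, is at 49.6 and 43 CPM.

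Genotype was tested gene by gene over the whole table with edgeR's quasi-likelihood test at an adjusted p of 0.05. In oocytes 13 members had enough counts to be tested, and 6 of them were lower in knockouts and none higher, where over all 7660 genes tested 6.67% were lower and 5.25% higher. All 6 belonged to the Gm5798 family, of which 7 members were tested. At 2 cells 14 members were tested, 9 were lower and none higher, against 9.91% lower and 7.44% higher over all 8708 genes tested. Of these 9, 8 were the 8 tested members of the Gm5798 family and the other was Gm21154. The median log2 fold change of the tested members was -0.30 in oocytes and -0.77 at 2 cells, against 0.02 and -0.002 over all genes tested. At each of these stages, 5 members passed the filter on low counts through their wildtype libraries and would not have through their knockout libraries. In oocytes these were Gm5798, Gm8011, 1700049E17Rik1 and Gm10378, all called lower, and 4930503E14Rik, which was not called. At 2 cells they were Gm5798, Gm8011, 1700049E17Rik1, Gm10378 and Gm6526, all called lower. The counts therefore describe the members tested and not all 91. They include called members that entered the test only through the group where they were higher. They also include near-copies that can share reads, such as Gm5798 and Gm8011, so the members are not independent observations.

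Gm5798 (chr14:41348609-41356839, deposited as RP23-473B17.1) was lower in every knockout oocyte than in any wildtype one. It ranged from 8.45 to 21.2 CPM in wildtype oocytes (median 11.8) and from 0.906 to 6.77 CPM in knockout oocytes (median 2.92). At 2 cells it ranged from 9.92 to 27.5 CPM (median 16.5) and from 0.284 to 6.55 CPM (median 3.7). The groups did not overlap at either stage. The log2 fold changes were -1.73 ± 0.21 (SE) in oocytes and -2.12 ± 0.22 at 2 cells, with edgeR adjusted p of 1.26e-07 and 4.23e-09. The call held in all 11 alternative analyses at each stage.

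Gm8011 (chr14:42463881-42472122, RP24-230H12.2), the near-copy of Gm5798, was lower as well. It ranged from 9.5 to 22.5 CPM in wildtype and from 1.96 to 11 CPM in knockout oocytes (medians 15.6 and 4.06). At 2 cells it ranged from 11.4 to 34.1 CPM and from 0 to 8.06 CPM (medians 20.8 and 3.66). In oocytes 15 of 16 knockout libraries lay below the lowest wildtype one and at 2 cells all 16 did. The log2 fold changes were -1.63 ± 0.19 (edgeR adjusted p 6.25e-08) and -2.41 ± 0.23 (8.39e-10). As the transcripts differ at so few bases, the pair is better read as a sum. It averaged 27.5 ± 5.82 and 8.42 ± 3.85 CPM in oocytes and 39.1 ± 8.67 and 7.6 ± 3.61 CPM at 2 cells (SD, n = 16 each), with no overlap at either stage and ratios of 0.306 and 0.194.

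1700049E17Rik1 (chr14:41924949-41933041, RP24-553G19.2) shares its whole sequence with 1700049E17Rik2. It ranged from 3.1 to 14.1 CPM in wildtype and from 2.35 to 7.19 CPM in knockout oocytes (medians 8.82 and 3.77), and at 2 cells from 3.64 to 19.4 CPM and from 2.15 to 12 CPM (medians 11.5 and 3.3). Ranges overlapped, with 16 of 16 knockout oocytes and 15 of 16 knockout 2-cell embryos below the wildtype median. The log2 fold changes were -1.07 ± 0.20 (edgeR adjusted p 0.000373) and -1.66 ± 0.23 (3.59e-06). The pair with its copy averaged 11.7 and 5.09 CPM in oocytes and 16.3 and 5.35 CPM at 2 cells, ratios of 0.437 and 0.328.

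Gm6526 (chr14:43747866-43755948, RP23-78F6.5) was at most 91.6% identical to the other family members named here, and it was also lower. It ranged from 6.48 to 23.1 CPM and from 2.12 to 12.3 CPM in oocytes (medians 12 and 8.02), and from 8.19 to 33 CPM and from 0.247 to 10.6 CPM at 2 cells (medians 15.2 and 5.16). At 2 cells 15 of 16 wildtype embryos lay above the highest knockout one. The log2 fold changes were -0.67 ± 0.19 (edgeR adjusted p 0.0194) and -1.59 ± 0.28 (0.00016). The oocyte call held in 7 of 11 alternatives and the 2-cell call in 10 of 12.

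1700024B05Rik, Gm7995 and Gm10378 form a further set of near-copies, with smaller differences. 1700024B05Rik (chr14:41943995-42003821, RP24-553G19.5) ranged from 14.8 to 32.3 CPM and from 8.35 to 20.9 CPM in oocytes (medians 23.5 and 14), and from 16.9 to 41.4 CPM and from 7.96 to 28.8 CPM at 2 cells (medians 27.4 and 14.4). Its log2 fold changes were -0.69 ± 0.15 (edgeR adjusted p 0.00151) and -0.82 ± 0.16 (0.000373). Gm7995 (chr14:42310210-42312273, RP24-246L19.2) ranged from 6.31 to 27.5 CPM and from 9.27 to 25.4 CPM in oocytes (medians 18.9 and 16.8), where it was not called (log2 -0.06 ± 0.16, edgeR adjusted p 0.863). At 2 cells it ranged from 22.1 to 37.5 CPM and from 9.05 to 47.8 CPM (medians 30.8 and 20.1), with log2 -0.48 ± 0.15 (0.0237), a call held in 8 of 12 alternatives. Gm10378 averaged 4.8 and 3.15 CPM in oocytes and 7.65 and 4.57 CPM at 2 cells and was called lower at both (edgeR adjusted p 0.0259 and 0.00888), in 7 of 11 alternatives each. The 3 together averaged 45.9 ± 9.69 and 33.9 ± 8.45 CPM in oocytes and 65.1 ± 8.22 and 41 ± 14.8 CPM at 2 cells (SD, n = 16 each). The highest knockout sum, 86.2 CPM, was 2-cell replicate 13, and without it the knockout mean was 38 ± 8.8 CPM.

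Gm8104 (chr14:43100601-43115190, RP23-136I9.4) was near 0 in oocytes, at 0.833 ± 0.701 and 1.01 ± 1.49 CPM (SD, n = 16 each), too low to be tested there. At 2 cells it was the highest member, from 14.9 to 142 CPM in wildtype (median 54.8) and from 4.18 to 73 CPM in knockout embryos (median 27.4). The ranges overlapped, with 13 of 16 knockout embryos below the wildtype median. The log2 fold change was -0.90 ± 0.29 (edgeR adjusted p 0.031), and the call held in 7 of 12 alternatives (adjusted p from 0.0179 to 0.256). Without Gm8104, the sum of the Gm5798 family at 2 cells was 153.3 ± 18.3 and 66.5 ± 19.4 CPM (SD, n = 16 each), a ratio of 0.434.

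**Figure D5:**
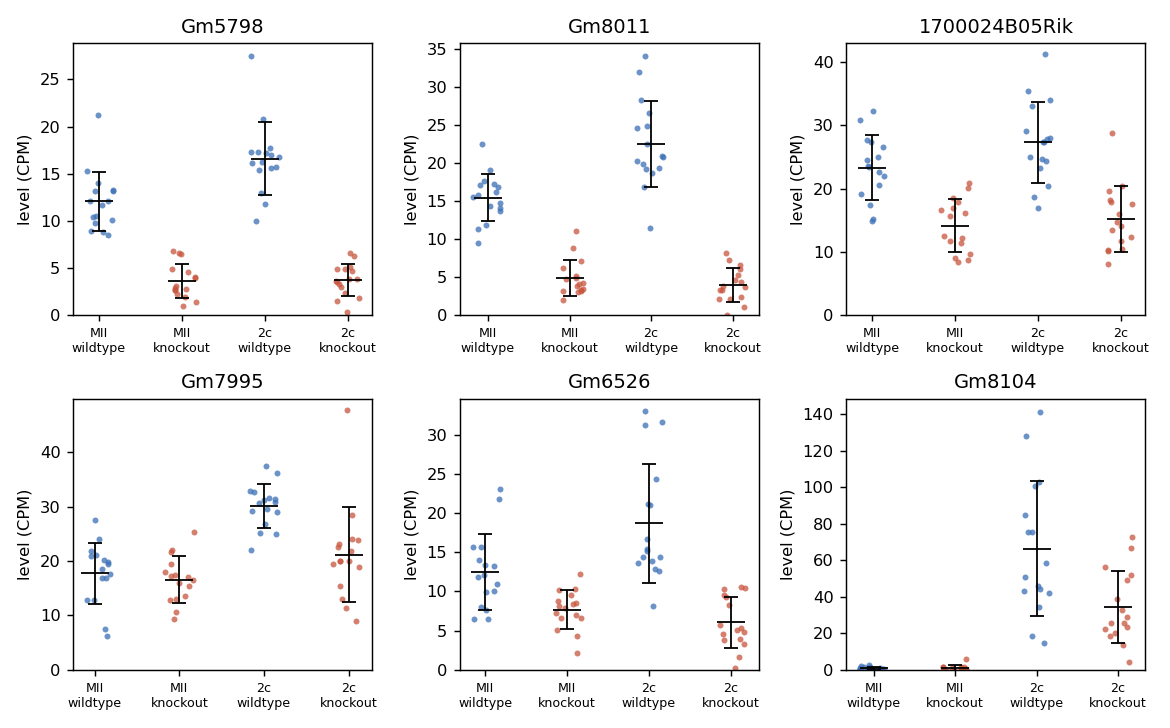
Levels in CPM (y axis, one scale per gene) of 6 members of the Gm5798 family in MII oocytes and 2-cell embryos, each point 1 library (blue wildtype, red knockout), with means and bars of 1 SD. Gm5798 shows no overlap of the genotypes at either stage, Gm7995 overlaps at both, and Gm8104 is near 0 in oocytes.

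Most members outside the Gm5798 family had too few counts for a test. Of those tested by genotype, only Gm21154 was called, at 2 cells. Gm21154 (chr14:43646251-43673065, RP23-299A24.6), which overlaps Gm8165 on the opposite strand by 322 exon bases, ranged from 3.05 to 15.2 CPM and from 0.11 to 6.66 CPM at 2 cells (medians 8.22 and 2.99). Its log2 fold change was -1.26 ± 0.30 (edgeR adjusted p 0.00354), held in 8 of 11 alternatives. The sources used here do not say whether the counting used strand, and without it reads of this overlapping pair cannot be separated. AC154806.1 (chr14:43766461-43909143, RP23-159L16.7), a long intergenic RNA of no family, ranged from 32.9 to 67 CPM and from 27.1 to 67.2 CPM at 2 cells (medians 52.9 and 42.5), with log2 -0.15 ± 0.13 (edgeR adjusted p 0.444). In oocytes it averaged 20.4 and 18.7 CPM (log2 -0.07 ± 0.16, 0.818).

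In the Gm7970 family, the 2 members tested in oocytes and the 1 tested at 2 cells were not called. Gm7970 (chr14:41550120-41555583, RP23-3N5.1) ranged from 3.6 to 18.3 CPM and from 2.73 to 17.4 CPM in oocytes (medians 8.17 and 9.45), with log2 0.24 ± 0.24 (edgeR adjusted p 0.568). Its 99.8% identical copy Gm7980 had means of 6.83 and 6.81 CPM (log2 0.04 ± 0.28, 0.958). Gm17026 (chr14:42254659-42260048, RP23-294B15.2) ranged from 0.14 to 35.2 CPM and from 0 to 41.4 CPM at 2 cells (medians 7.68 and 10.8), with log2 0.20 ± 0.51 (edgeR adjusted p 0.816). The spread between single embryos was here as large as the level.

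At 4 cells 4 members were tested and none was called with edgeR, where 7.34% of all 7464 genes tested were lower and 9.11% higher. None of the 4 had an unadjusted p under 0.05. DESeq2 called 1 member higher, and limma with voom weights called Gm9732 lower. Gm9732 (chr14:43298872-43306004, RP24-63B17.4), a Gm5798 family member, ranged from 2.65 to 42.7 CPM in wildtype and from 0 to 27.5 CPM in knockout embryos (medians 13.1 and 4.38), with log2 -0.90 ± 0.48 (edgeR adjusted p 0.197). Dydc2 (chr14:41049117-41069208), whose counts were mostly whole, ranged from 0 to 39 CPM and from 2.06 to 38.2 CPM (medians 16 and 8.67), with log2 -0.62 ± 0.37 (edgeR adjusted p 0.268). Both genes overlapped widely between genotypes.

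At 8 cells 2 members, Dydc2 and Gm7324, were tested and neither was called by edgeR, DESeq2 or limma, or had an unadjusted edgeR p under 0.05. Over all 7208 genes tested 3% were lower and 8.45% higher. Dydc2 had means of 11.3 ± 6.17 (SD, n = 16) and 13.2 ± 12 CPM (SD, n = 15), and Gm7324 of 9.1 ± 2.52 and 8.39 ± 3.21 CPM. The levels of the Gm5798 family at this stage were too low for a test, with Gm5798 itself at 0.00365 and 0.726 CPM, or 0.332 CPM for knockout without replicate 7, which held 6.24 CPM.

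The course over stages was followed in wildtype libraries, where a change also had to reach 1 on the log2 scale. From oocyte to 2 cells, 19 members were tested, and 2 fell and 3 rose, against 19.4% of 10222 genes that fell and 31.8% that rose. Gm8104 rose by 5.93 ± 0.41 (log2, SE), Gm17026 by 3.36 ± 0.51 and Gm21154 by 1.06 ± 0.31. Gm7970 fell by 1.61 and its copy Gm7980 fell by 1.54. The all-gene median of this step was 0.20. The Gm5798 family divided here, as 9 of its 10 tested members stayed inside the threshold while Gm8104 rose.

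From 2 to 4 cells, 18 members were tested, and 13 fell and 3 rose, against 43.5% of 10748 genes that fell and 31.2% that rose. The median over all genes was -0.44 and over the tested members -3.51. Gm8104 fell by 6.05 ± 0.55 (log2, SE), or by 7.03 without 4-cell wildtype replicate 11, Gm7995 by 5.57 ± 0.45, Gm8011 by 5.03 ± 0.48 and AC154806.1 changed by -4.49 ± 0.36. Mat1a, at 7.41 CPM at 2 cells, fell by 3.85 ± 0.56. Dydc2 rose by 5 ± 0.55, Gm7324 by 3.15 ± 0.40 and Gm9732 by 1.52 ± 0.44. So Gm9732, which is 99.1% identical to 1700049E17Rik1, was highest at 4 cells (15.8 CPM in wildtype), a stage when 1700049E17Rik1 had a mean of 1.3 CPM.

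From 4 to 8 cells, 6 members were tested, and 3 fell and none rose, against 10.9% of 8810 genes that fell and 9.67% that rose. Gm9732 fell by 2.78 ± 0.61 (log2, SE), Dydc1 by 2.10 ± 0.58 and Gm8126 by 1.65 ± 0.67, the last in 3 of 5 alternatives. Dydc2, Gm47547 and Gm7324 made up the rest. At 8 cells the 17 members of no family held 53.6% of the wildtype and 47.7% of the knockout sum, against 20.8% and 20% in wildtype oocytes and 2-cell embryos. Among them is Gm7324, which shares 52.7% of its windows with another gene and had 66.1% non-whole values.

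Whether the genotype difference itself changed between stages was tested as an interaction. From oocyte to 2 cells none of 19 members was called, where 4.07% of 10222 genes were, and 5 members had an unadjusted p under 0.05. From 2 to 4 cells 5 of 18 members were called, against 15.6% of 10748 genes, with an all-gene median of 0.20. From 4 to 8 cells none of 6 was called, against 2.26% of 8810, and 1 had an unadjusted p under 0.05. The 5 called members were 1700049E17Rik1, 1700024B05Rik, Gm7995 and Gm21154, for which the difference moved up from 2 to 4 cells, and Gm17026, for which it moved down. Oocyte markers at 4 cells summed to a mean of 59.4 CPM (median 50.9) in wildtype and 146 CPM (median 110) in knockout embryos, or a knockout median of 109 CPM without replicate 15, and their part in these calls was not tested. Without that library the Gm7995 call was lost (log2 1.51, edgeR adjusted p 0.0641), and Gm6526 was called instead (2.21, 0.0429). 1700024B05Rik went from means of 27.3 and 15.2 CPM in wildtype and knockout at 2 cells to 1.15 and 3.2 CPM at 4 cells.

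The interval's genes of known function were low or were not called. Mat1a was at 3.91 and 3.83 CPM in oocytes (log2 -0.02 ± 0.32, edgeR adjusted p 0.98) and 7.41 and 8.55 CPM at 2 cells (0.29 ± 0.27, 0.491). Of the other genes of its enzyme, Mat2a was lower (-0.73 ± 0.25, edgeR adjusted p 0.0369) and Mat2b, a regulatory subunit, higher in knockout 2-cell embryos (0.48 ± 0.12, 0.00454). Sftpa1, Sftpd and Mbl1 stayed at or under 0.207 CPM in every group mean, and of the 7 collectin genes, Mbl2, which lies outside the interval, was tested in oocytes, at 2 cells and at 8 cells and was not called. None of the 8 genes deposited under Ear or Ang names had enough counts for a test, nor had Ang5 and Ang6, which were deposited under clone names. Ear1 was at 1.44 and 2.66 CPM at 2 cells, Ear10 reached 0.0245 CPM, Ear2 was at 0, and Ang5 and Ang6 stayed at or under 0.262 CPM.

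Of a list of 21 genes of the 2-cell stage outside the interval, 20 were in the table, 18 were tested at 2 cells, and 6 were lower and none higher in knockouts, with a median log2 fold change of -0.95. Over all 8708 genes tested there, 9.91% were lower and 7.44% higher, with a median of -0.002. In oocytes 3 were tested, with Tmem92 lower and Tcstv1 higher, against 6.67% of all genes tested lower and 5.25% higher. At 4 cells 8 were tested and 1, Tdpoz2, was lower, against 7.34% of all genes lower and 9.11% higher. At 8 cells 6 were tested and none was called. The genes whose 8 group means were most like the interval's sum, among 7520 outside it, were Osbpl8 (Pearson's r 0.993), Zfp943 (0.987), Irf1 (0.984), Srp14 (0.981) and RP24-421N21.1 (0.975), over group means that share their libraries. Of these, Irf1 was called lower in knockout 2-cell embryos (log2 -0.94 ± 0.32, edgeR adjusted p 0.0388).

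Whole-number values were also summed on their own. The Gm5798 family then summed to 3.43 ± 7.63 and 2.84 ± 4.21 CPM in oocytes and to 2.83 ± 6.01 and 5.06 ± 9.6 CPM at 2 cells (SD, n = 16 each). The SDs exceed the means, so no genotype difference can be read from these sums. Non-whole values held 96.2% of the family's counts. Over the interval the whole-number values summed to 11.9 ± 8.86 and 18.2 ± 12.6 CPM in oocytes and 22.1 ± 9.53 and 27.9 ± 13.2 CPM at 2 cells (SD, n = 16 each). These are ratios of knockout to wildtype of 1.525 and 1.26, where all values together gave 0.694 and 0.609. The means of the whole-number values thus went the other way, but the share of counts left out differed between genotypes. Non-whole values held 93.85% and 85.8% of the interval's counts in wildtype and knockout oocytes, and 93.83% and 87.74% at 2 cells. These ratios therefore depend on which values were left out, and no genotype difference can be read from them. The sources used here do not say how reads were divided among copies, and its part in the levels of single copies was not tested.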

How the data were processed

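PolyA RNA of single oocytes and embryos was read on an Illumina NextSeq after SMART-Seq amplification and Nextera XT library preparation, per the labels' protocols. The deposited values are the authors' estimated counts per gene, which need not be whole. Per the submitters' processing notes, Trimmomatic 0.32, STAR 2.5.1a and featureCounts 1.5.1 were used with mm10. The treatment of reads that fit several genes and the strand setting are not given in the sources used here, and both can change the counts of copied or overlapping genes.

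The deposited gene names follow GENCODE M18, per the file's name. Of the 91 members, 76 had the same start and end in GENCODE M21 and 15 were matched by exon overlap of at least 80%, and M21 symbols are used. CPM was computed from the unrounded values over the library total. For tests, counts were rounded and libraries under 100000 counts left out. Genotype was tested within each stage with edgeR 4.0.16 in R 4.3.3 (quasi-likelihood F test, TMM factors, filterByExpr, Benjamini-Hochberg adjustment over all genes tested), and stage steps and interactions in 4-group fits of adjacent stages. Tested on simulated 2-cell data (8588 unchanged genes), the fit called 100% of genes changed 4-fold, 48.9% of those lowered and 52% of those raised 2-fold, and 0.023% of the unchanged. The simulation gave every gene the same dispersion and changed only genes above a minimum mean count. Its rates need not hold for members that are lower or vary more between libraries. Alternatives used DESeq2 1.42.0, limma 3.58.1 and other filters, factors and libraries. Families came from pairwise alignment with blastn 2.17.0, and mafft v7.526 aligned the printed coding stretches and promoters.

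Replicate numbers did not pair the libraries. Across 4458 genes, the correlation of same-numbered libraries' deviations had medians of 0.027, -0.052, 0.017 and 0.014 at the 4 stages, and 5, 4, 4 and 4 pairs were over 0.1. Named members were the 12 with the highest group mean, up to 3 called each way per genotype comparison, the annotated single genes, the Ear and Ang genes, and others singled out after their values were seen. The members and gene lists were chosen with earlier results of these data known.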

Additional observations from a re-analysis of the deposited data

Results flagged for a closer look

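For 5 members the genotype difference changed between the 2-cell and the 4-cell stage by the interaction test of edgeR, where 15.6% of all genes tested did. Values are the change of the log2 fold change (knockout minus wildtype) from 2 to 4 cells.

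1700024B05Rik changed by 2.33 (edgeR adjusted p 0.000513), with wildtype and knockout means of 27.3 and 15.2 CPM at 2 cells and 1.15 and 3.2 CPM at 4 cells. 1700049E17Rik1 changed by 2.22 (edgeR adjusted p 0.00622), with means of 12 and 3.9 CPM and then 1.3 and 1.9 CPM. Gm21154 changed by 2.1 (edgeR adjusted p 0.0249), with means of 8.1 and 3.15 CPM and then 0.68 and 1.38 CPM. Gm7995 changed by 1.66 (edgeR adjusted p 0.0393), with means of 30.1 and 21.2 CPM and then 0.726 and 1.69 CPM, and without 4-cell knockout replicate 15 its call was lost (log2 1.51, edgeR adjusted p 0.0641). In these 4 the level at 4 cells was at most 3.2 CPM in either genotype.

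Gm17026 changed the other way, by -5.37 (edgeR adjusted p 0.000643), with means of 11.5 and 12.7 CPM and then 5.34 and 0.106 CPM. The 4-cell wildtype mean rests on replicate 11, which held 65.6 CPM where the median was 0.587 CPM. Without that library the change was -3.62 (edgeR adjusted p 0.00727). The same library had 2-cell markers at 1160 CPM, and their part in the result was not tested.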

How the results depend on the processing

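Of the values of the members called by genotype under the alternatives, 147 kept their direction and call, 39 kept their direction and lost the call, and none reversed. In oocytes (6 members called) the count was 3 when a log2 change of 1 was also asked for, 11 with DESeq2, 10 without a filter, 2 with at least 10 CPM in 16 libraries, 3 with replicates 1 to 8, 3 with replicates 9 to 16 and 2 with all 8 groups in one fit. Over all genes DESeq2 called 770 lower and 595 higher of 21978, no filter 581 and 409 of 21978, and the 8-group fit 151 and 101 of 12092. At 2 cells (9 called) the same settings gave 5, 14 (DESeq2), 10 (no filter, with 6 of the 9), 5 (10 CPM), 4, 4 and 3. Here DESeq2 called 1359 of all 30669 genes lower and 713 higher, no filter 1244 and 917 of 30669, and the 8-group fit 702 and 195 of 12092. At 4 cells (0 called) DESeq2 gave 1, voom 1, no filter 4 and the 8-group fit 3. Among all genes DESeq2 called 731 lower and 941 higher of 25600, and voom 718 and 872 of 7464. No filter gave 1209 and 1499 of 25600, and the 8-group fit 818 and 1235 of 12092. At 8 cells (0 called) no filter gave 5 of 57 members tested and the 8-group fit 9 of 24, all higher. Calls over all genes leaned the same way, with 2324 higher and 599 lower of 25290 without a filter. The 8-group fit called 2721 higher and 539 lower of 12092. Both fits kept 8-cell knockout replicate 7. Without a filter the stage steps gave 31, 42 and 13 members in order, the interaction from 2 to 4 cells 3 in place of 5, and that from 4 to 8 cells 6 in place of 0. These fits tested 81, 80 and 63 members. Over all genes the steps called 11180 rising and 2910 falling of 31290, 5782 and 11041 of 32085, and 1787 and 2610 of 28108. Those 2 interactions called 1308 higher and 629 lower of 32085, and 786 and 290 of 28108. The causes were not tested, except that no filter and DESeq2 tested more members and the replicate splits used fewer libraries.

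Replicate numbers do not pair the libraries. With the replicate block, 5, 8, 0 and 0 members were called by genotype at the 4 stages, and 3 in place of 5 by the interaction from 2 to 4 cells, where Gm7995 (edgeR adjusted p 0.0745) and Gm21154 (0.0519) lost the call. With this block 482 of all 7660 genes were lower and 264 higher in oocytes, and 578 and 503 of 8708 at 2 cells. The interaction called 1027 higher and 356 lower of 10748. Each number correlated best with its own in 1, 1, 1 and 2 libraries.

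From whole-number values alone the interval summed to 11.9, 18.2, 22.1, 27.9, 30.2, 22.7, 17.6 and 28.4 CPM from wildtype oocytes to knockout 8-cell embryos, taking wildtype before knockout at each stage. With TMM factors the oocyte sums were 217.3 and 154.9 CPM. Leaving out single libraries that stood apart left the genotype counts at 6, 9, 0 and 0. This was planned for oocytes and 2-cell embryos and chosen after seeing the data for the later stages, the stage steps, the interactions and the sums. Without 4-cell knockout replicate 15, 4 of the 5 members called by the interaction from 2 to 4 cells kept the call, and Gm7995 lost it (adjusted p 0.0641). The sums without them were 123.8 (knockout oocytes), 213.9 (knockout 2-cell), 101 and 73.6 (4-cell) and 52.3 CPM (knockout 8-cell). The depth of these libraries left 78, 77, 87 and 89 of the 91 members untested by genotype.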
